A study of Mus musculus with 12 samples.

Results

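The genes described here encode the respiratory chain and ATP synthase of mouse mitochondria, in B16F10 cells, a mouse melanoma line. Members were protein-coding genes whose symbols follow the naming of the subunits of complexes I to V (Nduf with a, b, c, s or v, Sdh, Uqcr, Cox4 to Cox8 and Atp5, with Cyc1), or the mt- prefix of genes on mitochondrial DNA. A mean of at least 1 CPM in any group was required. CPM stands for counts relative to the library total, scaled between libraries by TMM (trimmed mean of M values) unless another scale is named. The selection of members used CPM without TMM scaling. Among 55487 counted genes, 98 matched by symbol and type and 90 reached that level, 78 nuclear and 12 mitochondrially encoded. The nuclear members were 36 genes of complex I, 4 of complex II, 9 of complex III, 12 of complex IV and 17 of ATP synthase, which is complex V. The mitochondrial members were 7 of complex I, 1 of complex III, 3 of complex IV and 1 of complex V. The 8 matching genes below the level were mt-Atp8, Cox4i2, Cox6b2, Cox7a1, Cox7b2, Cox8b, Cox8c and an additional gene identifier with the symbol Atp5o. Just inside the level were mt-Nd3 (highest group mean 1.53 CPM on the scale used for selection) and mt-Nd4l (2.70 CPM), and just outside it Cox7a1 (0.501 CPM) and mt-Atp8 (0.280 CPM). Complexes were assigned by symbol, so Ndufa4, counted with complex I, is a protein now placed in complex IV, and Cox7a2l and Atp5s are assembly or coupling factors named after the complexes.

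The melanoma cells, labelled wild type, had spent 24 h in medium taken from macrophages grown out of bone marrow, and the groups differed in what those macrophages had been given for 24 h. For M0 this was control medium. For M1 it was INF-γ at 20 ng/ml, as the labels spell what is taken here to be interferon gamma, and for M2 it was IL-4 (interleukin-4) at 20 ng/ml. The macrophages of the TAM group, a name used for tumour-associated macrophages, received 75% medium conditioned by B16F10 cells. Each of the 4 groups had 3 libraries. Nothing in the labels states that these were separate cultures, so a p-value here reflects the spread of the libraries at hand and that spread may be technical. Carry-over of cytokine or tumour medium into the collected medium is not addressed by the labels either, so macrophage products and remains of the treatment cannot be told apart. In bulk RNA, fewer cells with a transcript and less of it per cell cannot be told apart.

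The respiratory chain passes electrons from NADH, at complex I, and from succinate, at complex II, through coenzyme Q, complex III and cytochrome c to oxygen at complex IV, and ATP synthase uses the proton gradient that complexes I, III and IV build. Complex II is encoded wholly in the nucleus, and the other complexes combine nuclear subunits with a core made from mitochondrial DNA. Nuclear subunit genes are transcribed singly in the nucleus, and many of their promoters are known to bind NRF1, GABP, YY1 and estrogen-related receptors. The mitochondrial genes are transcribed as long precursors from both strands of the mitochondrial DNA, and the individual mRNAs are released by cutting at the tRNAs between them.

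Promoters of 4 nuclear members are shown because the results turn on these genes: Ndufa8 and Sdha were lower in TAM, Ndufa7 was higher in M1 and TAM, and Cox6a1, the general form of an isoform pair, was not called in any comparison of M1, M2 and TAM. Each runs 5′ to 3′ on the strand of its gene, from 250 bases before to 50 after the start given by RefSeq (GRCm38.p6, the assembly also called mm10), and capitals mark matches to the core motifs of NRF1 (GCGCANGCG) or of GABP and other ETS factors (CCGGAAG), on either strand.
Ndufa8, chr2:36049289-36049588, minus strand: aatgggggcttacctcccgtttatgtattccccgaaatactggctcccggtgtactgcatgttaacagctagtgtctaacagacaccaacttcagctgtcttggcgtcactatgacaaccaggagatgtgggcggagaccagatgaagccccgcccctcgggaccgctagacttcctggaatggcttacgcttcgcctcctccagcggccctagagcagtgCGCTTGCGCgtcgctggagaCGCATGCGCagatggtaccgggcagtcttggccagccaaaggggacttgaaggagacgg
Sdha, chr13:74350191-74350490, minus strand: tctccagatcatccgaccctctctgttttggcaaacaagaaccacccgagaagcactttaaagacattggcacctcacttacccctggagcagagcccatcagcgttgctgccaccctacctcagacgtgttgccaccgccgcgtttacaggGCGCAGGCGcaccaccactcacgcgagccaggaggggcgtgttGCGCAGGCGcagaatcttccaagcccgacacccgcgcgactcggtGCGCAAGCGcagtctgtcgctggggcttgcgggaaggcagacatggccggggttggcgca
Ndufa7, chr17:33824322-33824621, plus strand: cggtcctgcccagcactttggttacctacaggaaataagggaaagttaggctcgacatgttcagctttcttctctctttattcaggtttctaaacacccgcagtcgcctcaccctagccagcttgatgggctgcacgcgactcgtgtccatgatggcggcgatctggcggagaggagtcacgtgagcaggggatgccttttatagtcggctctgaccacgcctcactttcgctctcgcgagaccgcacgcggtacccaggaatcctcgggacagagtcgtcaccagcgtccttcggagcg
Cox6a1, chr5:115348909-115349208, minus strand: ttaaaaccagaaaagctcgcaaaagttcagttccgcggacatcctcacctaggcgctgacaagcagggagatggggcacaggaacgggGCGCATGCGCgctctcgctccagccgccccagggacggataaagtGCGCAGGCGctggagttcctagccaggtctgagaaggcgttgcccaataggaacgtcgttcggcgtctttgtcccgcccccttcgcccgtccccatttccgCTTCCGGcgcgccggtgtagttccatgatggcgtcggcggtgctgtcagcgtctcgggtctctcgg
The Ndufa8 promoter held 2 NRF1 matches, that of Sdha 3, and that of Cox6a1 2 NRF1 matches and 1 ETS match, where overlapping matches of a motif were counted once. The Ndufa7 window held no match to either motif, nor to those of YY1 (AAGATGG) and estrogen-related receptors (TCAAGGTCA), which says only that these letters are not in this window.

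The table gave a promoter for 64 of the 78 nuclear members. The NRF1 motif was present in 19 of them (29.7%), against 6.25% of all 32851 promoters in the table, and the ETS motif in 15 (23.4%), against 8.86%. The YY1 motif was present in 10 (15.6%), against 6.34%, and the motif of estrogen-related receptors in 2 (3.13%), against 0.423%. These were matches of letters on either strand, counted without regard to overlap between different motifs. Among the members with a promoter in the table, the NRF1 motif was found in 10 of the 34 lower in TAM than in M2, in 4 of the 16 higher and in 5 of the 14 not called either way. No test was made of these shares.

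The mitochondrial members differ in how far their reads can be told from those of other genes. Over 90% of the 50-base words of mt-Nd3, mt-Nd4l, mt-Co2, mt-Co3 and mt-Atp6 also occur in other annotated genes, between 98.0% and 100%. For each of these 5 genes the closest copy was a pseudogene on chromosome 1, where part of the mitochondrial genome has been inserted. The first 60 bases of mt-Atp6, a subunit of the proton channel of ATP synthase, are shown because they are identical in its chromosome 1 copy Gm10925, so that no read within them can be placed by its letters.
mt-Atp6, chrM:7927-7986, plus strand, GRCm38: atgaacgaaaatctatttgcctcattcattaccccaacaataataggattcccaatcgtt
The shared part was 62.2% for mt-Nd4, 51.1% for mt-Co1, 8.19% for mt-Nd2 and 7.61% for mt-Nd5. The 5 genes with over 90% shared were also those with the lowest counts. The mt-Co2 gene stood at 55.4 ± 5.2 CPM (SD, n = 3) in M2, and mt-Co1, whose product joins the same enzyme core, at 9922 ± 349 CPM. Per kilobase of exon these M2 levels were 81.0 and 6422 CPM. How the authors' counter treated reads with several matches is not given in the sources used here. Adding the copy's counts brought mt-Co2 only to 79.5 ± 8.28 CPM in M2, and values of these 5 genes are given as uncertain. Without a stated strand setting, reads of mt-Nd6, on the opposite strand to its neighbours, cannot be told from antisense reads.

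M0 replicate 1 stood apart from the other libraries, and the nuclear members were among the genes that showed it. Across genes, Pearson's r of its log2 CPM was 0.945 and 0.948 with M0 replicates 2 and 3, where all other pairs within a group gave 0.992 to 0.993. The summed level of the nuclear members was 25395 CPM in M0 replicate 1, and 13430 and 13677 CPM in replicates 2 and 3. Relative to the mean of those 2 libraries, 75 of 78 nuclear members were higher in replicate 1, with a median log2 difference of 1.04, as were 77 of 77 cytosolic ribosomal protein genes with a median of 1.13. The median over all 14591 genes tested was 0.00. The mitochondrial members went both ways, with 7 of 12 higher, a median log2 difference of 0.22 and a range from −0.62 for mt-Co1 to 1.21 for mt-Nd6. Nuclear members have short transcripts (median merged exon length 1697 bp, against 3950 bp for all genes tested), and across 12668 genes of at least 1 CPM the difference fell with log2 exon length at a Pearson r of −0.495, or −0.389 across the 78 nuclear members. Genes share a library and are not independent, so no p is given. Merged length joins the exons of all annotated transcripts of a gene, so it can exceed the length of the mRNA present. Ndufs1 (8086 bp merged) and Ndufb2 (5628 bp merged) were lower in replicate 1, at log2 differences of −0.25 and −0.36. Sdha (4126 bp merged) did not move (0.01). Other members of such merged length rose. Raw counts in M0 replicates 1, 2 and 3 were 1016, 469 and 611 for Atp5l (6443 bp). For Ndufb7 (4522 bp) they were 3938, 1275 and 1596. Comparisons with M0 are therefore given with and without this library, and those among M1, M2 and TAM were fitted on their own 9 libraries.

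**Figure D1:**
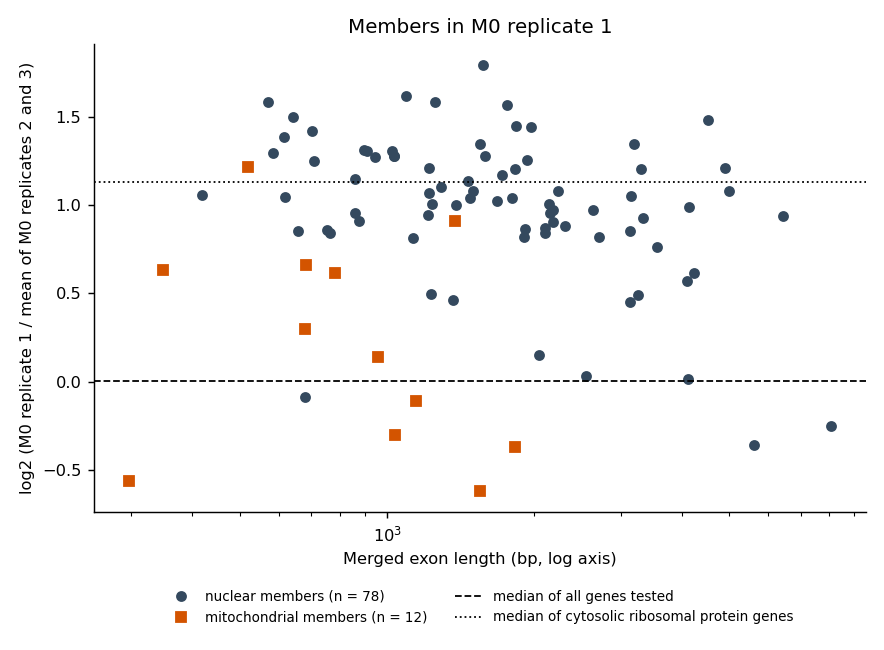
Log2 difference of each member between M0 replicate 1 and the mean of M0 replicates 2 and 3 (vertical axis) against merged exon length in bp (horizontal axis, log scale), for 78 nuclear members (circles) and 12 mitochondrial members (squares). The dashed line at 0.00 is the median of all genes tested and the dotted line at 1.13 that of cytosolic ribosomal protein genes, and 75 of 78 circles lie above 0.

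Totals ran from 15916756 to 20863973 counts per library. All 7 melanocyte genes on the list of markers were detected, and they summed to between 13746 and 20435 CPM, taken without TMM scaling, and were lowest in M1 and TAM. A list of 15 macrophage genes summed to 5.22 to 7.77 CPM in M0, 6.54 to 7.03 in M1, 5.46 to 6.38 in M2 and 3.44 to 4.29 in TAM, and Adgre1, Ptprc, Itgam, Tyrobp, C1qa, C1qb and C1qc had 0 counts in all 12 libraries. The level of these few counts was lower in TAM and its part in the results was not tested.

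Mitochondrial members drew more counts in sum than nuclear members in every library except M0 replicate 1. The 12 mitochondrial members summed to 21654 to 23289 CPM in the M2 libraries and the 78 nuclear members to 12705 to 13523 CPM. Per kilobase, the median M2 level was 665 CPM for mitochondrial and 70.7 CPM for nuclear members, and the highest were mt-Co1 at 6422 CPM and, among nuclear genes, Atp5b, the catalytic beta subunit of ATP synthase, at 508 CPM. The nuclear sum was 11992, 12013 and 11825 CPM in the M1 libraries and 11309, 11597 and 11102 CPM in TAM. All 6 of these values lay below the 3 of M2 and below M0 replicates 2 and 3. The mitochondrial sum was 21400, 21409 and 20961 CPM in M1 and 23921, 22484 and 24547 CPM in TAM. The M1 values lay below those of M2, and those of TAM overlapped with M2. The ratio of mitochondrial to nuclear sums was 1.94 to 2.21 in TAM, 1.77 to 1.78 in M1, 1.68 to 1.77 in M2, 1.75 and 1.66 in M0 replicates 2 and 3, and 0.795 in M0 replicate 1. TAM thus held the highest ratios and M0 replicate 1 the lowest, with the other groups between them. The mitochondrial sums lean on 1 gene, mt-Co1. It made up 53.4% to 55.1% of their counts in TAM, 60.8% to 65.1% in M1 and 43.3% to 44.4% in M2. The ratio without mt-Co1 is not given, so the order of the groups may not hold for the other mitochondrial members. These sums are descriptions of the members and were not tested.

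**Figure D2:**
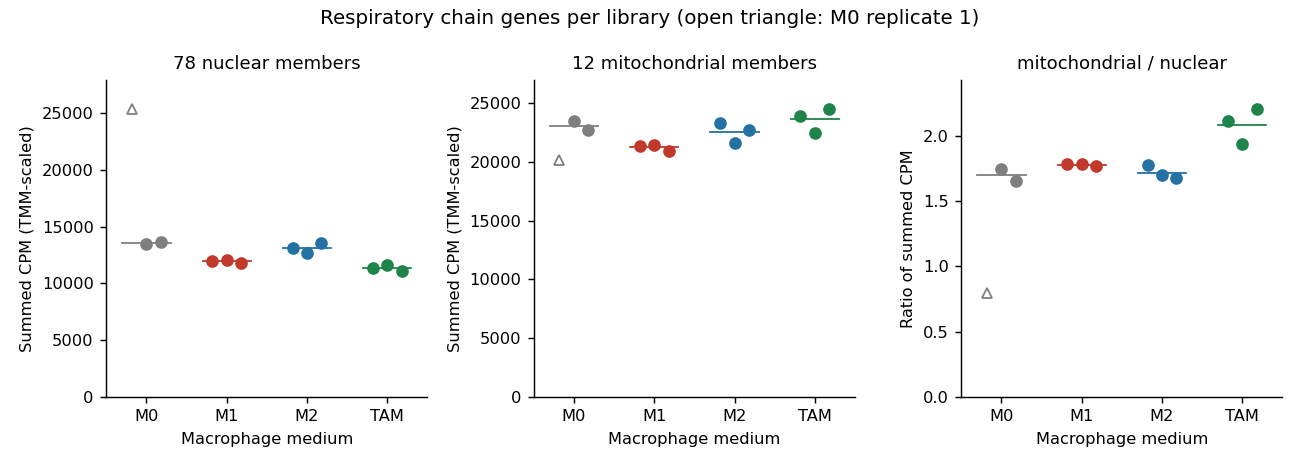
Summed TMM-scaled CPM of the 78 nuclear members (left) and 12 mitochondrial members (middle), and the ratio of both (right), for each library by macrophage medium. Lines are group means, without M0 replicate 1 (open triangle), whose nuclear sum of 25395 CPM lies above all other libraries, and the TAM ratios of 1.94 to 2.21 lie above those of all other groups. A single gene, mt-Co1, made up 53.4% to 55.1% of the mitochondrial counts in TAM.

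The mitochondrial members did not move as a block. In M1 the transcript of mt-Co1, the catalytic core of complex IV, was higher than in M2, and those of complex I subunits and of cytochrome b were lower. In TAM mt-Co1 was again higher and mt-Nd1 lower, but mt-Nd4, mt-Nd5 and mt-Nd6 were near their M2 level. A gene was called at a Benjamini-Hochberg adjusted p under 0.05, over all genes tested, in edgeR's quasi-likelihood test. Between M1 and M2, 2 mitochondrial members were higher in M1 and 6 lower, a median log2 change of −0.42, where 49.5% of all 14401 genes were called and their median was 0.00. In TAM versus M2, 3 were higher and 4 lower with a median of 0.03, against 71.2% of all genes called and a median of 0.00. These comparisons share the M2 libraries, so their values are given side by side and not as independent observations.

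The mt-Co1 gene (chromosome M, 5328 to 6872, plus strand) stood at 10307, 9624 and 9836 CPM in M2, 13942, 13019 and 13407 CPM in M1 and 13178, 12007 and 13220 CPM in TAM. All M1 and TAM libraries were above all M2 libraries, and above M0 replicates 2 and 3 at 10046 and 9971 CPM. The log2 change was 0.47 ± 0.04 (SE) in M1 versus M2 (edgeR adjusted p = 7.51e-16) and 0.36 ± 0.04 in TAM versus M2 (adjusted p = 1.07e-12). Both calls were lost when the M0 libraries shared the fit (adjusted p = 0.0604 and 0.0597). Its share of all mitochondrial member counts was 60.8% to 65.1% in M1, 53.4% to 55.1% in TAM, 43.3% to 44.4% in M2, 42.8% and 44.0% in M0 replicates 2 and 3, and 32.3% in M0 replicate 1. M1 had the largest share, followed by TAM, and the M2 and M0 values overlapped.

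The mt-Nd1 gene (chromosome M, 2751 to 3707, plus strand), a membrane subunit of complex I at the coenzyme Q site, stood at 3411, 3232 and 3446 CPM in M2. It stood at 1926, 2120 and 1921 CPM in M1 and 2063, 1964 and 2149 CPM in TAM. The M1 and TAM ranges overlapped each other and lay wholly below M2. The log2 change from M2 was −0.73 ± 0.04 in M1 (edgeR adjusted p = 8.86e-22) and −0.71 ± 0.04 in TAM (adjusted p = 7.66e-22), and TAM versus M1 gave 0.02 ± 0.04 (adjusted p = 0.704). The mt-Cytb gene (chromosome M, 14145 to 15288, plus strand), the cytochrome b core of complex III, was at 4585, 4422 and 4648 CPM in M2, 2257, 2664 and 2287 CPM in M1 and 4133, 3988 and 4340 CPM in TAM. It separated M1 from TAM. Its log2 change was −0.89 ± 0.05 in M1 versus M2 (adjusted p = 3.2e-11) and 0.76 ± 0.05 in TAM versus M1 (adjusted p = 1.39e-10). The TAM versus M2 change of −0.14 ± 0.05 (adjusted p = 0.0224) missed the threshold without M2 replicate 3 (adjusted p = 0.0779), TAM replicate 1 (0.075) or TAM replicate 2 (0.15).

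Another 4 mitochondrial subunits of complex I fell in M1. The log2 change in M1 versus M2 was −0.47 ± 0.04 for mt-Nd2, −0.55 ± 0.10 for mt-Nd4, −0.40 ± 0.07 for mt-Nd5 and −0.44 ± 0.04 for mt-Nd6, with edgeR adjusted p of 0.00325 or less for each. In TAM versus M2 mt-Nd2 fell by 0.26 on the log2 scale, with a standard error of 0.04 (adjusted p = 2.21e-08). The TAM versus M2 changes of mt-Nd4 (0.11 ± 0.10), mt-Nd5 (0.01 ± 0.07) and mt-Nd6 (0.06 ± 0.04) were not called. In TAM versus M1 those 3 genes and mt-Nd2 were higher, by 0.65 ± 0.10 (mt-Nd4), 0.41 ± 0.07 (mt-Nd5), 0.49 ± 0.04 (mt-Nd6) and 0.21 ± 0.04 (mt-Nd2), and mt-Co1 was lower by a log2 change of −0.10 ± 0.04 (adjusted p = 0.00828). The mt-Co1 ranges of TAM and M1 overlapped, and the call was lost in DESeq2 (adjusted p = 0.0732) and without M1 replicate 1 (0.0526) or TAM replicate 2 (0.103). Over the whole class, 6 mitochondrial members were higher in TAM than in M1 and 1 lower, with 71.7% of all genes called, 33.6% rising and 38.1% falling.

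Of the 5 uncertain genes, mt-Nd4l was higher in TAM, with 48, 53 and 59 counts against 36, 24 and 27 in M2, a log2 change of 0.84 ± 0.25 (edgeR adjusted p = 0.00213). The change of mt-Co3, a core subunit of complex IV, was 0.31 ± 0.08 and that of mt-Atp6 −0.32 ± 0.08 in the same comparison, both called. The mt-Co2 gene was called higher in M1 versus M2 (0.20 ± 0.07, adjusted p = 0.0138) with overlapping ranges, and the call was lost without M1 replicate 1 (adjusted p = 0.0594), M1 replicate 3 (0.0881), M2 replicate 2 (0.0825) or M2 replicate 3 (0.0551). The mt-Nd3 gene, with 11 to 36 counts in these 9 libraries, was not called in either comparison with M2, though its M1 versus M2 change of −0.85 ± 0.38 passed without M2 replicate 2 (adjusted p = 0.0437) or M2 replicate 3 (0.031). Among the 7 mitochondrial members with less shared sequence, 1 was higher and 6 lower in M1 versus M2, 1 higher and 3 lower in TAM versus M2, and 5 higher and 1 lower in TAM versus M1. Of all genes, 49.5%, 71.2% and 71.7% were called in these comparisons.

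**Figure D3:**
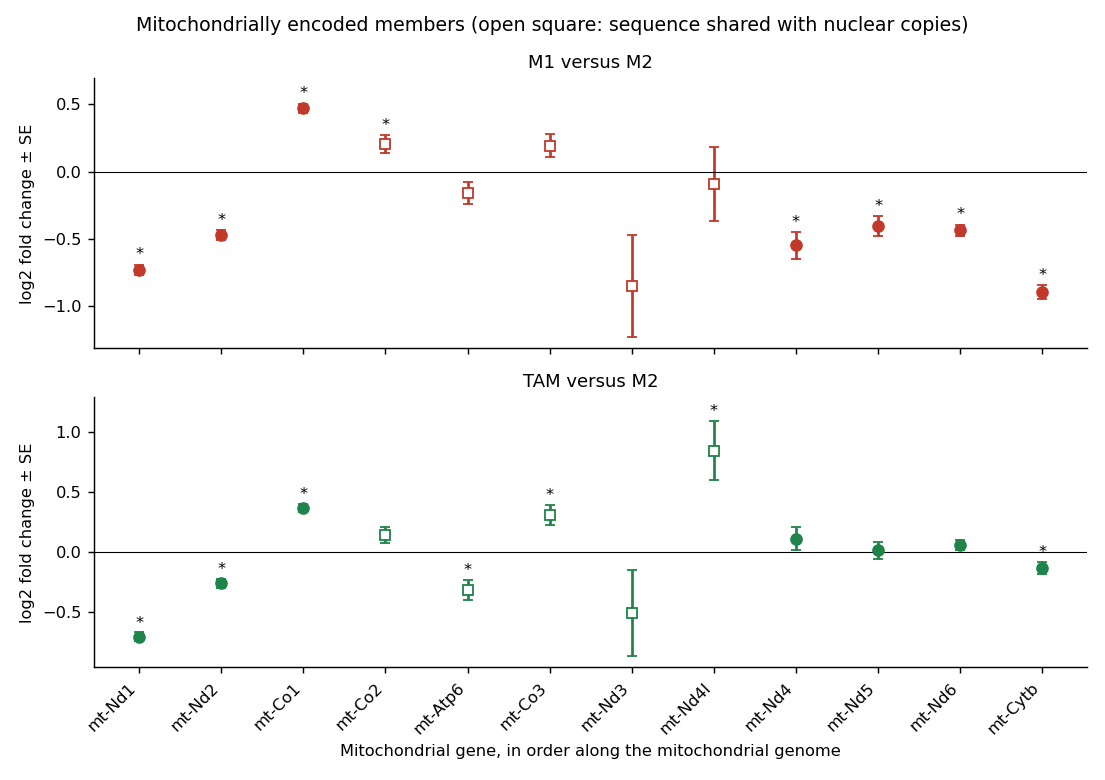
Log2 fold change ± SE (vertical axes) of the 12 mitochondrially encoded members in M1 versus M2 (top) and TAM versus M2 (bottom), in the order of the genes along the mitochondrial genome. Open squares are the 5 genes with over 90% shared sequence and asterisks mark an adjusted p under 0.05; mt-Co1 lies above 0 in both panels (0.47 and 0.36) and mt-Nd1 below it (−0.73 and −0.71).

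Nuclear members mostly changed by small amounts in M1, and in TAM they changed in both directions. Against M2, 7 of 78 were higher and 27 lower in M1, with a median log2 change of −0.08. In TAM versus M2, 22 were higher and 40 lower, with a median of −0.16. In TAM versus M1, 26 were higher and 34 lower, with a median of −0.07. The members higher in TAM include Cox6a2 in both comparisons, a gene that met the level only in TAM. The share of nuclear members called was 43.6%, 79.5% and 76.9%, beside 49.5%, 71.2% and 71.7% of all genes, so the number called was near the background in each. The share called lower was 27 of 78 in M1 versus M2, where 24.2% of all genes were lower and 25.3% higher, and 40 of 78 in TAM versus M2, where 35.9% were lower and 35.3% higher. The share of all genes that differed from M2 by at least 1.5-fold is not given, so the counts that follow have no background. Such a difference was reached by 20 called nuclear members in TAM, Cox6a2 included. In M1 Uqcrh reached it, and Cox6a2, a member only through its TAM level, did so on 5 counts against 0, with overlapping groups and a call that is lost without M1 replicate 1, M1 replicate 2 or any M2 replicate.

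These counts depend on the choice of libraries for the spread. The fit of 9 libraries left out the M0 libraries, and a fit of all 12, in which M0 replicate 1 widens the shared spread (common dispersion 0.0324, against 0.00166 without that library and 0.00173 in the 9), called 0 nuclear members in M1 versus M2 (6 at an unadjusted p under 0.05), 18 in TAM versus M2 and 10 in TAM versus M1. In that fit 17.2%, 43.2% and 43% of all genes were called, so the nuclear members' shares of 0%, 23.1% and 12.8% lay below the background, where those of the fit of 9 libraries were near it. DESeq2 on the 9 libraries called 34 in M1 versus M2, and its share of all genes called is not given. In the edgeR fit of all 12 libraries, the mitochondrial members called were 4 in M1 versus M2 (mt-Nd1, mt-Nd2, mt-Nd5 and mt-Cytb). They were 2 in TAM versus M2 (mt-Nd1 and mt-Nd4l) and 4 in TAM versus M1 (mt-Nd4, mt-Nd4l, mt-Nd5 and mt-Cytb). The nuclear members of TAM versus M2 called by both fits were Ndufa1, Ndufa8, Ndufb5, Ndufc2, Ndufs1, Sdha, Sdhc, Sdhd, Uqcrc1, Uqcrfs1, Uqcrq, Cox5a, Cox6a2, Cox7a2, Atp5a1, Atp5c1, Atp5g3 and Atp5s. Other calls of these 3 comparisons, those of mt-Co1 included, rest on the fit of 9 libraries. Under every alternative run, the members called kept their direction.

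**Figure D4:**
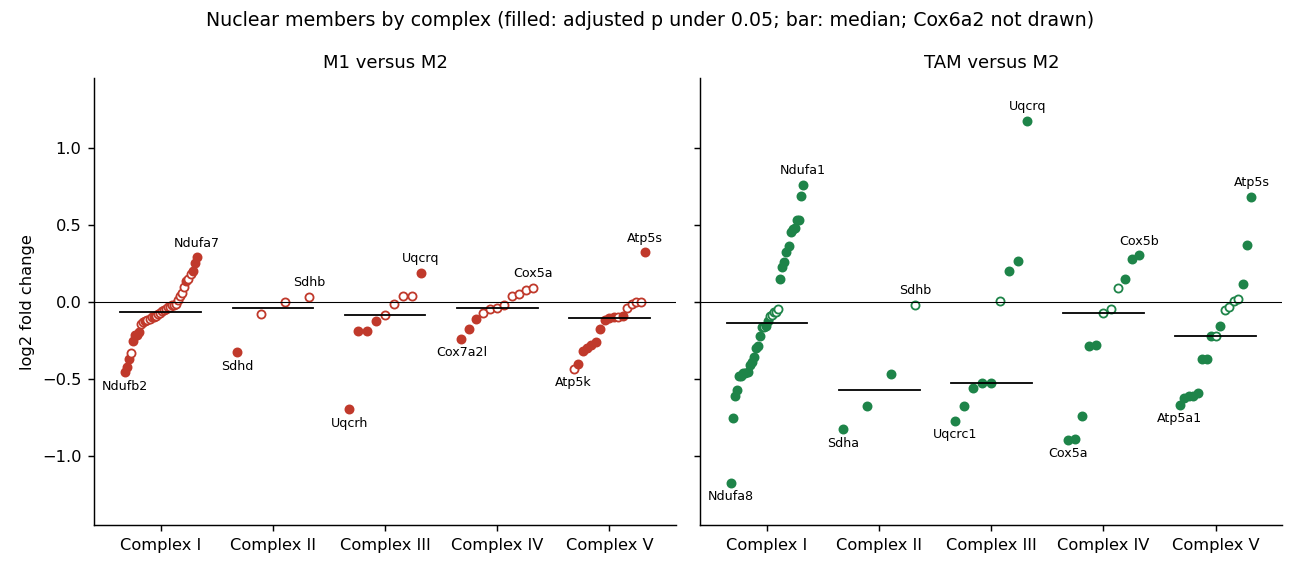
Log2 fold change (vertical axis) of the nuclear members by complex in M1 versus M2 (left) and TAM versus M2 (right), with filled points for an adjusted p under 0.05, open points otherwise, and bars for the median of each complex. Cox6a2, with a far larger change, is not drawn, and the TAM panel spreads from −1.18 for Ndufa8 to 1.17 for Uqcrq.

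By complex, the share of nuclear members called in TAM versus M2 was 83.3% for complex I, 75% for II, 88.9% for III, 75% for IV and 70.6% for V, beside 71.2% of all genes. In M1 versus M2 it was 36.1%, 25%, 55.6%, 33.3% and 64.7%, beside 49.5%. Complex I had 12 nuclear members higher and 18 lower in TAM versus M2, of 36. Ndufa8 (chromosome 2, 36036326 to 36049406, minus strand), an accessory subunit on the intermembrane side, stood at 43.0, 45.2 and 40.6 CPM in TAM, 98.5, 93.0 and 98.8 CPM in M2 and 83.2, 87.4 and 90.2 CPM in M1. The TAM libraries held less than any other library. The log2 change was −1.18 ± 0.05 in TAM versus M2 (edgeR adjusted p = 1.06e-26) and −1.05 ± 0.05 in TAM versus M1 (adjusted p = 1.81e-24), and in M1 versus M2 it was −0.12 ± 0.05 (adjusted p = 0.0298). Ndufb5, another accessory subunit, fell in TAM by 0.76 and Ndufb7 by 0.61 on the log2 scale. Among the catalytic subunits, Ndufs1, which carries iron-sulfur clusters, had a log2 change of −0.30 ± 0.04 in TAM versus M2 and −0.20 ± 0.04 in M1 versus M2. Ndufv1, which binds NADH, had changes of −0.22 ± 0.05 and −0.02 ± 0.05, of which the second was not called.

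The largest rises within complex I were smaller than the fall of Ndufa8. Ndufa1 (chromosome X, 37187588 to 37191163, minus strand), a small membrane subunit, stood at 54.3, 54.7 and 53.0 CPM in TAM and 30.5, 30.5 and 34.6 CPM in M2, a log2 change of 0.76 ± 0.07 (edgeR adjusted p = 8.88e-15). Ndufa7 (chromosome 17, 33824572 to 33838317, plus strand) stood at 98.3, 99.4 and 94.5 CPM in TAM, 68.8, 73.5 and 74.4 CPM in M1 and 61.5, 56.2 and 63.5 CPM in M2. Its groups followed each other without overlap, with log2 changes of 0.69 ± 0.05 in TAM (adjusted p = 1.06e-17) and 0.29 ± 0.05 in M1 (adjusted p = 4.69e-06) versus M2. Ndufa2, Ndufb9, Ndufb4 and Ndufb11 were higher in TAM by log2 changes between 0.47 and 0.53, and Ndufb9 lies on exons that another annotated gene covers to 19.5% of their length. In M1 versus M2 complex I had 4 nuclear members higher and 9 lower. The largest of these falls were Ndufb2, at −0.46 ± 0.16, and Ndufs8, an iron-sulfur subunit next to the coenzyme Q site, at −0.42 ± 0.06. Ndufb2 lay near 5 CPM and lost its call without M1 replicate 3 (adjusted p = 0.12), and it was higher in TAM than in M1 (0.82 ± 0.15).

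Complex II, succinate dehydrogenase, has 4 subunits and no mitochondrial gene. Sdha (chromosome 13, 74322254 to 74350280, minus strand), the flavoprotein that oxidises succinate, stood at 189, 194 and 187 CPM in TAM, 336, 331 and 343 CPM in M2, 320.5, 305 and 309.5 CPM in M1, and 350.0, 339 and 354 CPM in the M0 libraries. M0 replicate 1 did not differ from the others in this gene, and the TAM libraries were the lowest of the 12. The log2 change in TAM versus M2 was −0.83 ± 0.04 (edgeR adjusted p = 9.9e-26). The membrane anchors Sdhc and Sdhd fell in TAM by log2 changes of −0.47 ± 0.05 and −0.68 ± 0.04. Sdhb, the iron-sulfur subunit, was at 309, 324 and 310 CPM in TAM and 323, 306 and 326 CPM in M2, and was not called (−0.02 ± 0.04, adjusted p = 0.656). In M1 versus M2 Sdhd was lower (−0.33 ± 0.04, adjusted p = 1.52e-09), and Sdha (−0.08 ± 0.04, adjusted p = 0.0692) was called only with RLE size factors (adjusted p = 0.0276), in DESeq2 (0.0198) or without M1 replicate 1 (0.0448).

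Complex III had 3 nuclear members higher and 5 lower in TAM versus M2, of 9. Uqcrq (chromosome 11, 53427922 to 53430831, minus strand), a small subunit beside cytochrome b, stood at 415, 435 and 419 CPM in TAM, 189, 180 and 192 CPM in M2, 210.1, 206 and 210.4 CPM in M1 and 177 and 190.1 CPM in M0 replicates 2 and 3. Only M0 replicate 1, at 502 CPM, reached the range of TAM. The log2 change was 1.17 ± 0.04 in TAM versus M2 (edgeR adjusted p = 3.76e-32) and 0.19 ± 0.04 in M1 versus M2 (adjusted p = 7e-05). The core protein Uqcrc1 went the other way, at −0.77 ± 0.04 in TAM versus M2 (adjusted p = 2.6e-24), and so did the Rieske iron-sulfur protein Uqcrfs1 (−0.68 ± 0.05) and cytochrome c1, Cyc1 (−0.53 ± 0.04). The second core protein, Uqcrc2, was not called (0.00 ± 0.04). Uqcrh (chromosome 4, 116066965 to 116075071, minus strand), the hinge protein beside cytochrome c1, was at 92.0, 92.5 and 83.3 CPM in M1, 99.0, 102 and 106 CPM in TAM and 141, 141 and 161 CPM in M2. Both M1 and TAM were below M2, with log2 changes of −0.70 ± 0.05 (adjusted p = 5.52e-16) and −0.53 ± 0.05 (adjusted p = 5.32e-13), and M1 was the lower of both (TAM versus M1 0.17 ± 0.05, adjusted p = 0.00346).

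Complex IV, cytochrome c oxidase, had 4 nuclear members higher and 5 lower in TAM versus M2, of 12. Among the higher was Cox6a2, which reached the level for members only through TAM. Its rise there is thus tied to how members were chosen. Cox6a2 (chromosome 7, 128205435 to 128206387, minus strand) encodes the isoform of subunit VIa known from heart and skeletal muscle. Its counts were 295, 320 and 289 in TAM, 0, 0 and 0 in M2, 3, 2 and 0 in M1 and 0, 1 and 0 in M0. Every TAM library was far above all others. The level of 15.3 ± 0.725 CPM (SD, n = 3) in TAM was at least 295-fold higher than in M2, where the bound takes M2 as 3 counts over its libraries. Against the 5 counts of M1 the ratio was 173 (95% interval 73.8 to 534), which covers counting error only, since reads lacking molecular identifiers do not count separate molecules. The test also called Cox6a2 higher in M1 than in M2 (edgeR adjusted p = 0.0231) on those 5 counts against 0, and this call was lost without M1 replicate 1 (adjusted p = 0.11), M1 replicate 2 (0.0519) or any M2 replicate (0.0512 to 0.0573). Exons of Cox6a2 are covered to 10.3% of their length by Itgad, an integrin gene with 8 counts in all libraries together. The general isoform Cox6a1 was at 197, 201 and 184 CPM in TAM and 208, 186 and 208 CPM in M2 and was not called (−0.05 ± 0.05, adjusted p = 0.335), although it passed without M2 replicate 2 (adjusted p = 0.0377). Per kilobase in M2 its level was 286 CPM.

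Among the other nuclear subunits of complex IV some fell and some rose in TAM. Cox5a (chromosome 9, 57521274 to 57532426, plus strand), a matrix-side subunit, stood at 48.1, 46.1 and 50.9 CPM in TAM, 91.5, 84.6 and 93.5 CPM in M2 and 102, 88.1 and 90.5 CPM in M1, and the TAM libraries were the lowest. Its log2 change was −0.90 ± 0.06 in TAM versus M2 (edgeR adjusted p = 1.56e-19) and 0.09 ± 0.05 in M1 versus M2 (adjusted p = 0.156, or 0.0458 without M1 replicate 2). Cox7a2 (chromosome 9, 79755361 to 79759878, minus strand) stood at 66.5, 68.0 and 63.3 CPM in TAM and 120.2, 118 and 128 CPM in M2, a log2 change of −0.89 ± 0.05 (adjusted p = 1.61e-23), and its muscle counterpart Cox7a1 was below the level for members. Cox6b1, next to the cytochrome c site, fell by 0.74 on the log2 scale. Cox5b and Cox6c rose by 0.30 ± 0.04 and 0.28 ± 0.04, and Cox4i1, the largest nuclear subunit, was not called (0.09 ± 0.06, adjusted p = 0.167, or 0.0153 without TAM replicate 3). Cox7a2l, counted here by its symbol, was lower in M1 than in M2 (−0.24 ± 0.04, adjusted p = 8.7e-06) and was not called in TAM versus M2 (−0.07 ± 0.04). Cox8a, the smallest subunit, had a log2 change of −0.28 ± 0.04 in TAM versus M2.

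ATP synthase had 3 nuclear members higher and 9 lower in TAM versus M2, of 17, and 1 higher and 10 lower in M1 versus M2. Atp5a1, the alpha subunit of the catalytic head, stood at 721, 768 and 741 CPM in TAM, 939, 963 and 949 CPM in M1 and 1170, 1163 and 1202 CPM in M2. The groups followed each other without overlap, with log2 changes of −0.67 ± 0.04 in TAM (edgeR adjusted p = 4.57e-23) and −0.28 ± 0.04 in M1 (adjusted p = 2.37e-09) versus M2. Its partner Atp5b changed less, by −0.16 ± 0.03 in TAM and −0.10 ± 0.03 in M1. The M1 call of Atp5b (adjusted p = 0.0157) was lost without M1 replicate 3 (adjusted p = 0.0596) or M2 replicate 3 (0.0815). Of the 3 genes for the identical mature ring subunit c, Atp5g3 had a log2 change of −0.62 ± 0.04 and Atp5g2 of −0.37 ± 0.04 in TAM versus M2, and Atp5g1 was not called (−0.05 ± 0.05). Words of 50 bases shared with other genes made up 38.4% of Atp5g2. In M1, Atp5g3 (−0.40 ± 0.04) and Atp5g1 (−0.18 ± 0.05) were lower and Atp5g2 was not called (0.00 ± 0.04). The Atp5g1 call was lost without M1 replicate 1 (adjusted p = 0.0544). Atp5s was higher in TAM than in M2 (0.68 ± 0.12, adjusted p = 1.15e-06), and its rise in M1 (0.32 ± 0.12, adjusted p = 0.0252) rested on overlapping ranges and missed the threshold in DESeq2 (adjusted p = 0.0626) and without M1 replicate 2 (0.132), M2 replicate 2 (0.205) or M2 replicate 3 (0.0544).

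**Figure D5:**
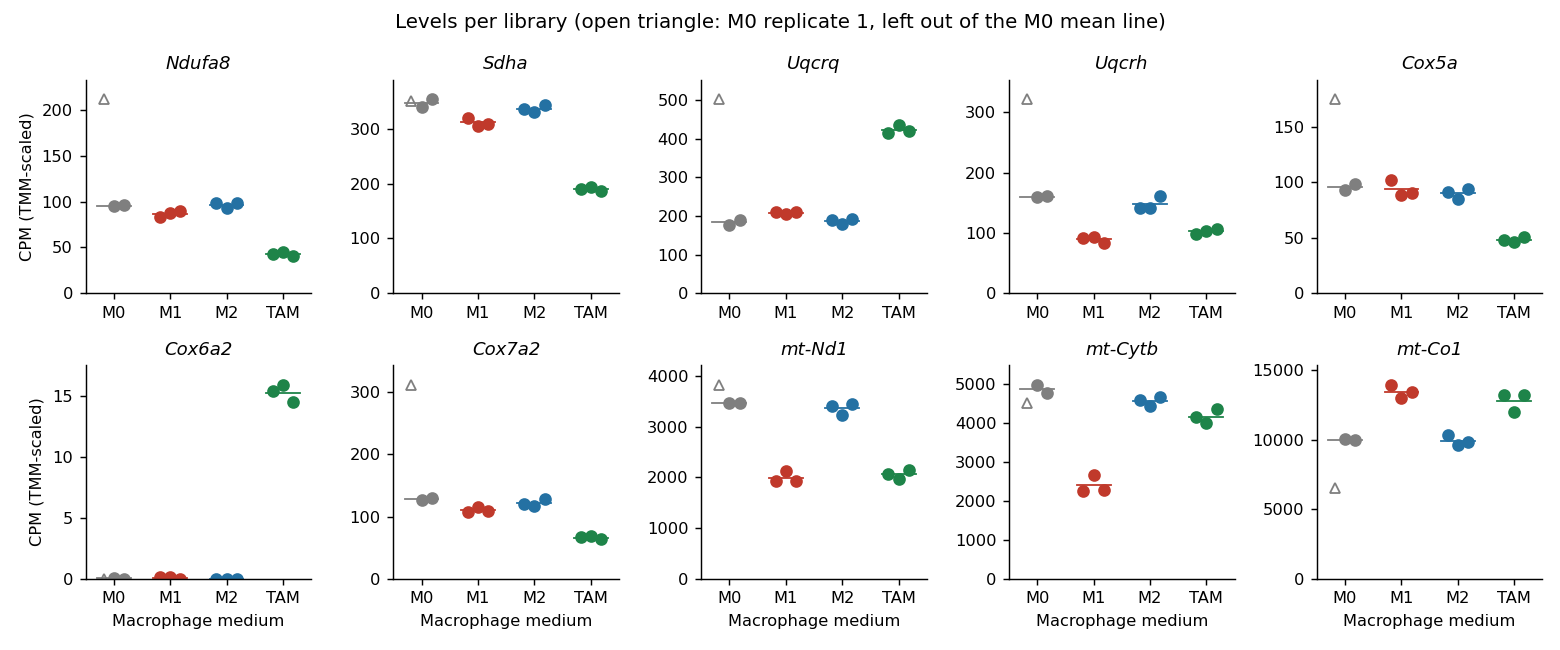
TMM-scaled CPM per library (vertical axes, from 0) of 10 members by macrophage medium. Lines are group means, without M0 replicate 1 (open triangle), and Cox6a2 is near 0 outside TAM, Ndufa8, Sdha, Cox5a and Cox7a2 are lowest in TAM, and mt-Cytb is lowest in M1.

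Against M0, the fit of all 12 libraries gave 18 nuclear members lower and 0 higher in M1, where 25.7% of all genes were called (12.2% higher, 13.5% lower), and 44 lower and 3 higher in TAM, where 50.5% were (23.3% higher, 27.2% lower). Cox6a2, a member only through its TAM level, was among the higher in TAM. The medians of the nuclear members were −0.58 in M1 and −0.70 in TAM on the log2 scale. Without M0 replicate 1 the spread was far smaller and the medians shrank to −0.13 and −0.23. The counts then were 37 lower and 3 higher in M1 (47.1% of all genes called, 24.3% higher and 22.9% lower) and 45 lower and 13 higher in TAM (66.7%, with 33% higher and 33.7% lower). The M1 count ranged from 4 to 56 as single libraries of any group were left out, 4 of them without M1 replicate 2 or M1 replicate 3, 5 without M1 replicate 1, and 56 and 54 without M0 replicates 2 and 3. It was 10 or 11 without an M2 library and 9 without a TAM library. TAM replicate 1 lowered the TAM count from 47 to 31 when left out. Apart from the fit without M0 replicate 1, the share of all genes called in these fits is not given. Whether the counts of members followed that share was not tested. With all libraries Uqcrq was not called in TAM (0.55 ± 0.32, adjusted p = 0.17), and without M0 replicate 1 its log2 change was 1.2 ± 0.04 (adjusted p = 8.45e-30). Sdha kept its value between both fits, with −0.87 ± 0.08 (adjusted p = 4.44e-06) and −0.87 ± 0.04 (adjusted p = 2.82e-25). Ndufa8 moved from −1.64 ± 0.26 (adjusted p = 0.000374) to −1.16 ± 0.06 (adjusted p = 8.92e-25). Atp5k, a small ATP synthase subunit that was among the largest falls in M1 versus M0 (−1.23 ± 0.35, adjusted p = 0.0264), lost its call without M0 replicate 1 (adjusted p = 0.0755) or any M1 library (0.0576 to 0.0901). Atp5o, the subunit that ties head to stalk, went from −1.26 ± 0.36 to −0.55 ± 0.14, and its call with all libraries was lost without M1 replicate 2 (adjusted p = 0.087) or M1 replicate 3 (0.0976). Uqcrh, the third of the largest falls in M1, went from −1.26 ± 0.23 to −0.80 ± 0.05, and in TAM Ndufb7 went from −1.43 to −0.75 and Cox7a2 from −1.52 to −0.97. The rise of Ndufb2 in TAM (0.42, adjusted p = 0.0486) was lost without M0 replicate 1 (0.30, adjusted p = 0.107) and under most other alternatives, and that of Atp5s was 0.50 with it and 0.54 without it. Leaving out M0 replicate 2 (adjusted p = 0.0675) or TAM replicate 1 (0.0801) ended the Atp5s call. Exons of Atp5o are covered to 47.9% of their length by another annotated gene.

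Mitochondrial members in M1 versus M0 were 1 higher and 7 lower with all libraries and 2 higher and 7 lower without M0 replicate 1. That is 66.7% and 75% called, where 25.7% and 47.1% of all genes were. Cytochrome b and mt-Nd1 were lower by similar amounts in both fits. For mt-Cytb the log2 change was −0.98 ± 0.09 (edgeR adjusted p = 1.52e-05) and −0.98 ± 0.06 (adjusted p = 1.57e-08), and for mt-Nd1 −0.85 ± 0.09 and −0.77 ± 0.04. The mt-Co1 change was 0.61 ± 0.14 (adjusted p = 0.011) and 0.47 ± 0.04 (adjusted p = 1.78e-14), and that of mt-Nd6 −0.97 ± 0.27 (adjusted p = 0.0233) and −0.41 ± 0.05. With M0 replicate 1 in the fit, the mt-Nd6 call was lost without any single M1 library (adjusted p = 0.0636 to 0.079). Without M1 replicate 1, 5 mitochondrial members were called in place of 8. In TAM versus M0, 2 were higher and 2 lower with all libraries, and 2 higher and 4 lower without M0 replicate 1, where mt-Nd1 (−0.76 ± 0.04), mt-Nd2 (−0.33 ± 0.04), mt-Cytb (−0.23 ± 0.06) and mt-Atp6 (−0.76 ± 0.09) were lower and mt-Co1 (0.35 ± 0.04) and mt-Co3 (0.21 ± 0.10) higher. The TAM calls were 33.3% of the mitochondrial members with all libraries and 50% without M0 replicate 1. These shares lay below the 50.5% and 66.7% of all genes called. All comparisons with M0 share the M0 libraries.

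M2 medium gave no called member against M0 in the fit of all 12 libraries, with 0% of all genes called. At an unadjusted p under 0.05 there were 25 nuclear members and 1 mitochondrial member, and DESeq2 also called 0 of both. The nuclear median was −0.49 on the log2 scale with M0 replicate 1 and −0.06 without it, and then 0 nuclear members were called (10 at an unadjusted p under 0.05), where 0.341% of all genes were (0.207% higher, 0.134% lower). The single mitochondrial member called was mt-Atp6, among the genes with shared sequence, at 22.3, 23.0 and 22.8 CPM in M2 and 26.6 and 34.5 CPM in M0 replicates 2 and 3 (−0.43 ± 0.09, edgeR adjusted p = 0.00864). A p that misses the threshold does not show that the members were at the same level.

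Other genes of the pathway moved in both directions in TAM, and the shares of each list called are to be read against 71.2% of all genes in TAM versus M2 and 49.5% in M1 versus M2. Of 46 tested assembly factors, 15 were higher and 18 lower in TAM versus M2, and 12 higher and 1 lower in M1 versus M2, which is 71.7% and 28.3% called. Foxred1, a complex I assembly factor, rose in both (0.49 ± 0.05 and 0.53 ± 0.05), and Acad9, another, fell in TAM (−0.86 ± 0.06, edgeR adjusted p = 1.21e-17). Cox15, which makes the heme a of complex IV, fell in TAM (−0.53 ± 0.05) and rose in M1 (0.31 ± 0.05). Of 12 regulators of nuclear respiratory genes, 6 were higher and 3 lower in TAM versus M2, or 75%. Tfam, which packages and transcribes mitochondrial DNA, stood at 116 ± 3.62 CPM (SD, n = 3) in TAM and 67.3 ± 0.482 in M2 (0.79 ± 0.05, adjusted p = 1.23e-20). Esrra and Ppargc1b, an estrogen-related receptor and a coactivator, fell in TAM by log2 changes of −0.68 ± 0.06 and −0.97 ± 0.11. In M1 versus M2, 3 regulators were higher and 4 lower, or 58.3%, and Nrf1 was among the lower (−0.36 ± 0.05, adjusted p = 4.45e-08). The coactivator Ppargc1a was higher in M1 (0.25 ± 0.05) and was not called in TAM (0.06 ± 0.05, adjusted p = 0.266).

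Of 29 tested genes for mitochondrial transcription, replication and RNA processing, 12 were higher and 10 lower in TAM versus M2 (75.9%), and 6 higher and 8 lower in M1 versus M2 (48.3%). Lonp1, the matrix protease that also degrades Tfam protein, rose in TAM to 718 ± 25.7 CPM from 329 ± 8.63 in M2 (1.12 ± 0.05, edgeR adjusted p = 2.69e-21). Pnpt1, a ribonuclease of mitochondrial RNA, rose in M1 to 179 ± 13.9 CPM from 81.7 ± 1.35 in M2 (1.16 ± 0.05, adjusted p = 5.04e-23). Lrpprc, which stabilises mitochondrial mRNAs, fell in M1 (−0.26 ± 0.04, adjusted p = 2.63e-07). Of 77 tested mitochondrial ribosome genes, 18 were higher and 43 lower in TAM versus M2 (79.2%), and 22 higher and 14 lower in M1 (46.8%). Examples were Mrpl24, which rose in TAM (1.28 ± 0.05), and Mrpl12, which fell (−0.89 ± 0.04). Among 15 genes for coenzyme Q and cytochrome c, 6 were higher and 7 lower in TAM versus M2 (86.7%) and 6 higher and 2 lower in M1 (53.3%). Cycs, cytochrome c itself, stood at 421 ± 6.38 CPM in TAM, 357 ± 17.3 in M1 and 331 ± 11.2 in M2, and was called in both comparisons (0.35 ± 0.04 and 0.14 ± 0.04). Cytosolic ribosomal protein genes, which are short like the nuclear members, had 35 of 76 higher and 20 lower in TAM versus M2, against 22 higher and 40 lower of 78 nuclear members, and 2 higher and 29 lower in M1 versus M2, which is 72.4% and 40.8% called. Across the nuclear members, the TAM versus M2 log2 change ran with log2 exon length at a Pearson r of −0.177 and the M1 versus M2 change at −0.164, both given as descriptions over 78 genes of the same libraries.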

How the data were processed

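Trizol-extracted RNA of B16F10 cells was made into 12 Illumina mRNA libraries, per the labels' protocols. The authors deposited raw read counts per Ensembl gene, with unequal library totals. The submitters' processing notes name HISAT2 2.0 and mm10. Not given in the sources used here were the counter, its annotation, the strand setting and the handling of reads with several matches. Symbols were found for 55141 identifiers, and 55227 were in GENCODE release M21 (GRCm38), which gave types, positions and merged exon lengths. Promoters came from RefSeq (GRCm38.p6).

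The deposited counts were tested with edgeR 4.0.16 under R 4.3.3 (filterByExpr by group, TMM scaling, robust quasi-likelihood fit with a mean per group). Comparisons with M0 used 1 fit of all 12 libraries (14591 genes), and those among M1, M2 and TAM 1 fit of their 9 libraries (14401 genes). P-values were adjusted by Benjamini-Hochberg over all genes of a fit and, where no other tool is given, adjusted p-values are from edgeR. The SE is the absolute log2 change divided by the square root of F. The pipeline was tested on simulated counts. Levels are CPM scaled by TMM over all 12 libraries. Shared sequence is the percent of 50-base words of a gene's transcripts found in another gene's. The floor was 3 counts over a group, and ratio intervals are 95% conditional binomial intervals covering counting error only.

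Alternatives were DESeq2 1.42.0, RLE size factors, scaling without mitochondrial genes, no filter, a replicate block, all 12 libraries, and each library left out. The members, lists, tests and alternatives were chosen with earlier results of these data known. The genes named are all mitochondrial members, the 3 largest rises and falls called per comparison and class, a set of catalytic subunits and isoform families, and at most 4 genes per other list with the smallest adjusted p. Other members and list genes named to illustrate a complex or list were chosen after their values were seen.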

Additional observations from a re-analysis of the deposited data

How the results depend on the processing

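No member called in a comparison changed direction under any alternative that was run. DESeq2 called 32 nuclear members lower in M1 versus M0, in place of 18, and its share of all genes called is not given. With all 12 libraries in the fit, the nuclear members called were 0 in M1 versus M2, 18 in TAM versus M2 and 10 in TAM versus M1, and the mitochondrial members 4, 2 and 4. Leaving out the 5 genes with over 90% shared sequence was an alternative chosen after seeing the data. Of the other 7 mitochondrial members, 2 were called in TAM versus M0 and 4 in TAM versus M2. Of all genes, 50.5% and 71.2% were called in these comparisons. The values of mt-Co2 in M1 versus M0 (−0.11) and of mt-Co3 in TAM versus M0 (−0.03) were not called with all libraries, and without M0 replicate 1 they turned to 0.19 and 0.21 and passed (adjusted p = 0.0354 and 0.0468). Over all libraries left out in turn they ranged from −0.22 to 0.19 and from −0.18 to 0.21. The cause of these changes was not tested.

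With each library left out in turn, the nuclear members called ranged from 4 to 56 in M1 versus M0, 0 to 0 in M2 versus M0, 31 to 58 in TAM versus M0, 26 to 37 in M1 versus M2, 59 to 63 in TAM versus M2 and 56 to 61 in TAM versus M1. The mitochondrial members called ranged from 5 to 9, 0 to 1, 3 to 6, 7 to 9, 6 to 8 and 6 to 8 in the same order. Among these fits, the share of all genes called is given only for those without M0 replicate 1. It is not given for the replicate block below either. Whether the counts followed that share was not tested. The median log2 change of the mitochondrial members in TAM versus M1, 0.27 with all 9 libraries, ranged from 0.15 without TAM replicate 1 to 0.33 without TAM replicate 2. No shared effect of replicate number was visible. Deviations from group means correlated at −0.129 to 0.163 between same-numbered libraries and at −0.173 to 0.148 between the others. Such values cannot show that the libraries were unpaired. With the replicate block 12 nuclear members were called in M1 versus M0, 39 in TAM versus M0, 33 in M1 versus M2, 62 in TAM versus M2 and 59 in TAM versus M1, and the mitochondrial counts were 8, 4, 8, 7 and 7. In M2 versus M0 the block gave 0 of both.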
